A study of Mus musculus with 24 samples.

Results

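Elovl3, 1 of the 16118 genes with a value here, encodes an elongase of very long chain fatty acids. It was chosen for description on its measured values in these 24 libraries, namely its level by age and weaning, so those differences are given without a test. The tissue was the inguinal white fat pad, a subcutaneous depot, and its poly(A) RNA was sequenced in 6 groups of 4 animals with 1 library per animal. Male and female pups were taken on postnatal day 21 (p21), or on day 28 (p28) after either standard weaning (SW) or delayed weaning (DW). SW pups had been parted from the dam at p21, whereas DW pups were still with her. No genotype, strain or agent is named for any group, and the p21 animals carry the SW label. The level of a gene is given as its normalised read count, that is, its reads divided by a factor of the library, a scale close to TMM-scaled CPM (1.39 against 1.47 CPM for Elovl3 in p21 males). Within each group the animals have separate numbers, but litters are not given, so p-values measure the spread between these animals.

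Elongation of long chain fatty acids runs as a cycle of reactions on the endoplasmic reticulum membrane. An ELOVL enzyme condenses an acyl-CoA with malonyl-CoA, and a ketoacyl reductase, a dehydratase and an enoyl reductase complete the round that lengthens the chain by a pair of carbons. ELOVL3 acts mainly on saturated and monounsaturated acyl-CoAs. It is known from brown fat, where it is induced by cold, and from sebaceous glands of the skin and liver.

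The gene is ENSMUSG00000038754 on the forward strand of chromosome 19. In GENCODE M21 (GRCm38) it spans 46131897 to 46135694, with 2 transcripts of 4 exons each. The deposited table places it at 46120336 to 46124133, an interval of the same 3798 bases. Only 2.23% of 16095 gene starts in that table equal those of GENCODE M21, although the submitters' processing notes name mm10, so the build behind the deposited positions is not settled.

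Libraries held from 57600711 to 302145813 recovered reads on the listed genes. The fewest genes were detected in p21 male 53 (14054) and SW male 84 (15497). An alternative fit left out both together with SW female 74 (15972 genes), although p21 male 37 (15859) had fewer. Adipocyte identity was plain in every library: all 8 adipocyte markers, among them Adipoq and Plin1, were detected in all 24 animals. Bulk tissue cannot tell a change in the number of cells of a type from a change in RNA per cell.

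Elovl3 was high in SW animals of both sexes and low in every other group. In SW males the normalised read counts of Elovl3 were 21.8 in animal 78, 13.7 in animal 84, 7.64 in animal 85 and 4.597 in animal 124. In SW females the Elovl3 counts were 13.6 in animal 73, 9.58 in animal 81, 6.68 in animal 74 and 3.09 in animal 75. The 8 SW animals thus cover a wide range, and the lowest of them still lies above each of the other 16 animals.

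In DW males the Elovl3 counts were 2.24, 1.93, 1.24 and 1.08 in animals 80, 87, 79 and 86. In DW females they were 2.52, 2.10, 1.99 and 1.31 in animals 77, 76, 82 and 83. DW animals of the 2 sexes overlap with each other and stay under the lowest SW animal. At p21 the Elovl3 counts were 2.04, 1.59, 1.09 and 0.817 in males 38, 54, 37 and 53. In p21 females they were 2.26, 2.18, 1.75 and 1.14 in animals 30, 55, 56 and 36. The p21 and DW ranges overlap in both sexes.

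**Figure D1:**
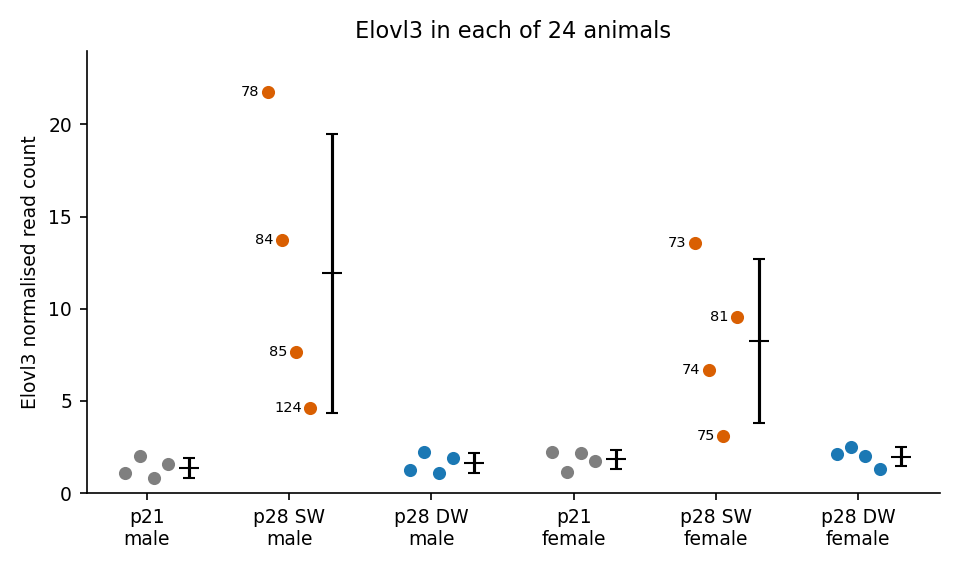
Normalised read count of Elovl3 (vertical axis, linear) in each of 24 animals by group. Points are animals, numbered for SW, and the black bar is the group mean with its SD (n = 4). The 8 SW animals run from 3.09 to 21.8 and the other 16 from 0.817 to 2.52.

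The SW mean of Elovl3 was 11.9 ± 7.58 (SD, n = 4) in males and 8.23 ± 4.44 in females. DW means were 1.62 ± 0.554 in males and 1.98 ± 0.501 in females. Before weaning, at p21, the means were 1.39 ± 0.543 in males and 1.83 ± 0.513 in females. Ordered from high to low, the groups run SW males, SW females, DW females, p21 females, DW males and p21 males. Of the neighbours in that order, only SW females and DW females have ranges that do not overlap.

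The ratio of the Elovl3 means, SW to DW, was 7.36 in males and 4.15 in females. SW to p21, it was 8.62 in males and 4.50 in females, while DW to p21 gave 1.17 in males and 1.08 in females. On the log2(value + 1) scale, which understates the change of a gene this low, DW minus SW was -2.13 (SE 0.35) in males and -1.50 (SE 0.35) in females. SW minus p21 on that scale was 2.27 in males and 1.58 in females. DW minus p21 was 0.14 in males and 0.08 in females, both smaller than their SE of 0.35. That SE pools the spread of all 6 groups, and with the compared groups alone it was 0.20 in males and 0.17 in females. The Elovl3 level of DW pups at p28 therefore lay close to that of p21 pups, and the level of SW pups of the same age did not.

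The reads behind these values limit them little. The p21 and DW animals had from 53 to 376 reads on Elovl3 and the SW animals from 422 to 2278. The smallest number, 53 reads in p21 male 53, has an exact Poisson 95% interval of 39.7 to 69.3, which covers counting error only. Without p21 male 53, SW male 84 and SW female 74, DW minus SW was -2.002 in males and -1.54 in females.

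Elovl3 varied more between SW animals than within the other groups. The highest SW male had 4.74 times the Elovl3 count of the lowest, and among SW females this ratio was 4.39. In the 4 other groups the same ratio was between 1.92 and 2.499. The coefficient of variation of Elovl3 was 63.5% in SW males and 54.0% in SW females, against 25.3% to 39.2% elsewhere. The 8 SW animals held 80.2% of the within-group sum of squares of Elovl3 on the log2(value + 1) scale. Adding 1 narrows the spread of low counts more than that of high ones, which raises this share.

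Animal numbers run from 30 to 56 at p21 and from 73 to 124 at p28, and both weaning groups occur in the ranges 73 to 80 and 81 to 87. Within 73 to 80, DW minus SW of Elovl3 was -3.08 in males (2 DW against 1 SW animal) and -1.22 in females (2 against 3). Within 81 to 87 it was -2.19 in males (2 against 2) and -2.01 in females (2 against 1). These signs follow from the absence of overlap given above. Only SW male 124 lies outside these ranges at p28, so age and animal number can hardly be told apart. With the range as a covariate, SW minus p21 of Elovl3 was 1.26 in males and 0.13 in females, values that rest on that animal. DW minus p21 was then -1.25 in males and -1.31 in females, so the nearness of DW to p21 levels given above does not hold in that fit.

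Elovl3 was chosen on its level by age and weaning in animals of both sexes, not on a difference between the sexes. That difference was tested with limma over all 16005 genes that passed the filter on low counts. At p21 female minus male was 0.26 on the log2 scale, with an adjusted p of 0.874 (limma, Benjamini-Hochberg). At p28 it was -0.44 after SW (adjusted p = 0.903, limma) and 0.19 after DW (adjusted p = 0.795, limma). No sex difference of Elovl3 passed the threshold of 0.05. The 95% interval of the SW difference ran from -1.16 to 0.29, so a lower level of Elovl3 in females of over 1 log2 unit is within it. The SE behind that interval, 0.35, pools the spread of all 6 groups, although Elovl3 varied most in SW animals. With the SW groups alone in the fit the SE was 0.46, so the interval given is too narrow for this difference.

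The drop from SW to DW was numerically larger in males for Elovl3, and so was the rise from p21 to SW. The interaction of sex and weaning was 0.63 (SE 0.50, 95% interval -0.40 to 1.66), with an adjusted p of 0.802 in limma. For sex and age it was -0.69 (SE 0.50, interval -1.72 to 0.34; adjusted p = 0.846, limma). Neither difference between the sexes was larger than the spread between animals allows, and the intervals do not show that the sexes were alike. With the compared groups alone the SE was 0.55 for sex and weaning and 0.56 for sex and age. Both interactions compare between the sexes the differences that chose the gene, so they are not independent of that choice. Over all genes the same fits called 57, 567 and 394 genes for sex at p21, SW and DW, 3 for sex by weaning and 165 for sex by age.

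Elovl3 is a minor member of its family in this tissue, as compared per kilobase of annotated exon. Elovl6, which elongates palmitate, and Elovl5, which elongates polyunsaturated fatty acids, had the highest levels. Per kilobase, Elovl3 stood at 6.04 ± 3.84 (SD, n = 4) in SW males, where Elovl6 stood at 131.9 ± 17.0 and Elovl5 at 53.2 ± 10.1. In SW females Elovl3 stood at 4.17 ± 2.25 per kilobase, Elovl6 at 142.7 ± 26.7 and Elovl5 at 51.7 ± 8.58. Elovl1, the widely expressed elongase of saturated very long chains, stood between 13.6 and 17.6 in group means. Elovl3 in SW animals thus lay under these 3 genes and above Elovl7 (at most 0.775), Elovl4 (at most 0.201) and Elovl2 (at most 0.0217).

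**Figure D2:**
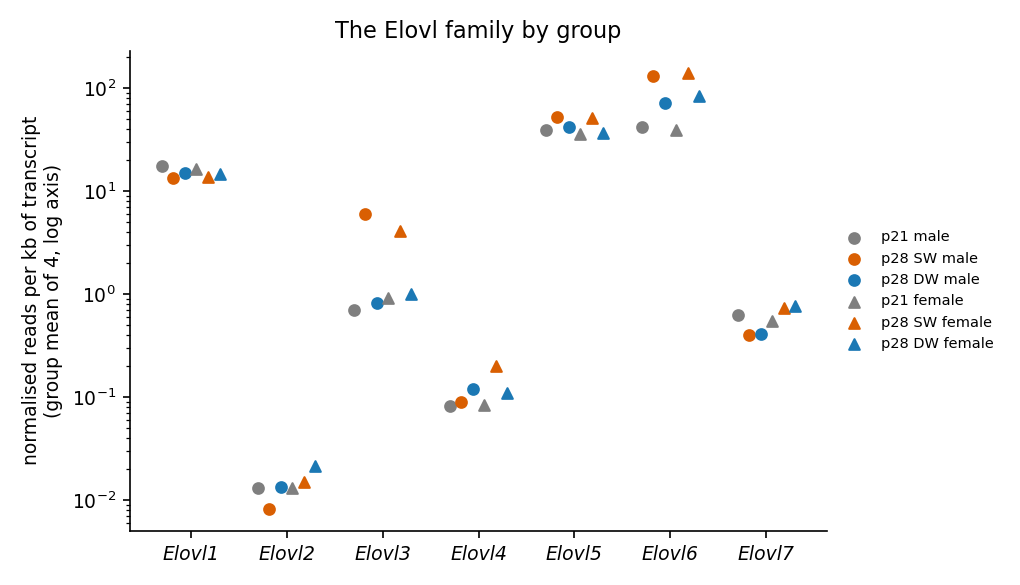
Mean normalised reads per kilobase of transcript (log axis) for the 7 Elovl genes in each group of 4 animals. Circles are males and triangles females, with grey for p21, orange for SW and blue for DW. Elovl3 runs from 0.701 in p21 males to 6.04 in SW males, and Elovl6 from 39.6 to 142.7.

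Elovl3 made up 2.94% of the summed family level per kilobase in SW males and 1.96% in SW females. In the other groups its share was between 0.625% and 0.987%. Among 16095 genes with an exon length, 66.3% lay below Elovl3 per kilobase in SW males and 57.2% in SW females. In the other 4 groups between 27.8% and 30.4% did. In SW pups Elovl3 thus moved from the lower part of the ranking of genes to above its middle.

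Elovl3 was also set against single genes in the same animal. Per 1000 normalised reads of Adipoq, which encodes the adipocyte hormone adiponectin, Elovl3 had 8.61 ± 5.81 (SD, n = 4) in SW males and 1.16 ± 0.408 in DW males. In females these ratios to Adipoq were 6.24 ± 3.70 after SW and 1.54 ± 0.361 after DW. The lowest SW ratio in either sex, 2.36, lies above the highest DW ratio, 1.95, but under the highest p21 ratio of 2.56. Per 1000 reads of Ucp1, the uncoupling protein of thermogenic fat, Elovl3 had 57.5 ± 23.0 in SW males and 59.4 ± 23.9 in SW females. The DW ratios to Ucp1 were 15.6 ± 1.99 in males and 14.2 ± 4.63 in females, and 1 female at p21 had 67.03, within the SW range of 30.0 to 83.6.

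The other genes of the elongation cycle were counted from a list of 13, of which 12 were tested. None of the 12 was called between DW and SW in limma in either sex. Over all genes 0.231% were called higher and 0.025% lower in DW males, and 0.462% higher and 0.812% lower in DW females. The median change of the 12, DW minus SW, was -0.11 in males and -0.0048 in females, beside 0.0037 and -0.025 over all genes. Alternative fits called at most 1 of the 12 in males and 2 in females.

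Against p21, SW pups showed a rise in 5 of the 12 cycle genes in males and 3 in females, with none lower. Over all genes 6.90% rose and 4.97% fell in SW males, and 7.39% rose and 4.23% fell in SW females. Elovl6 rose by 1.66 on the log2 scale in males (adjusted p = 0.00345, limma) and 1.98 in females (adjusted p = 4.47e-04, limma). The log2 rise of Elovl5 was 0.41 in males and 0.49 in females, and that of Hacd4, a dehydratase, 0.69 and 1.00. Hacd2, another dehydratase, and Tecr, the enoyl reductase, rose in males by 0.71 and 0.70. The calls of Elovl6 in SW pups were lost only with the range of animal numbers as a covariate, under which the genes called over all numbered 214 in males and 158 in females, from 1901 and 1860. Those of Elovl5, Hacd2, Hacd4 and Tecr in males and of Elovl5 in females were also lost in fits without 1 library. In males they held in 8 of 24 such fits for Elovl5, 15 for Tecr, 19 for Hacd4 and 21 for Hacd2. The Elovl5 call in females held in 20 of 24.

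DW pups differed from p21 pups in 1 cycle gene in males and 2 in females, all higher. The background of that comparison was 8.86% higher and 6.10% lower in males, and 5.95% higher and 6.16% lower in females. Hacd4 rose by 0.91 in DW males and 1.09 in DW females, and Elovl6 rose by 1.18 in DW females (adjusted p = 0.0277, limma). That Elovl6 call was lost without p21 female 30, DW female 82 or DW female 83, and in 2 of 7 other alternative fits. In DW males Elovl6 was 0.68 above p21 with an adjusted p of 0.190 in limma. Elovl6 had a mean count of 469.2 ± 226.6 (SD, n = 4) in DW males and 537.6 ± 163.7 in DW females, between its p21 means of 269.1 ± 47.2 and 254.7 ± 108.1 and its SW means of 848.5 ± 109.0 and 917.8 ± 171.9. In males the DW range of Elovl6, 247.5 to 692.4, overlapped with its p21 range, as that of Elovl3 did. In females the DW range of Elovl6, 381.3 to 729.7, lay above its p21 range and reached into its SW range, whereas that of Elovl3 overlapped with p21 alone.

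Of 8 desaturases, which put double bonds into fatty acids, 2 rose and 1 fell from p21 in SW males and 2 rose in SW females (background 6.90% and 7.39% higher, 4.97% and 4.23% lower). In DW pups 3 rose and 1 fell in each sex (background 8.86% and 5.95% higher, 6.10% and 6.16% lower). Fads1, the delta-5 desaturase, fell by 0.54 in SW males, by 0.58 in DW males and by 0.68 in DW females. Scd1, the main stearoyl-CoA desaturase of fat, had a mean count of 33330 ± 3411 (SD, n = 4) in SW males and 35750 ± 6798 in DW males, against 9198 ± 1443 at p21. In females Scd1 had 35860 ± 11930 after SW, 31740 ± 3518 after DW and 9442 ± 3836 at p21. Scd1 rose over p21 by 1.86 in SW males, 1.95 in DW males, 1.98 in SW females and 1.85 in DW females (adjusted p between 0.00234 and 0.00535, limma). Scd3 rose in the same 4 comparisons, and DW and SW were not told apart for any of the 8 desaturases in limma. Per 1000 reads of Scd1, Elovl3 had 0.374 ± 0.271 in SW males, 0.0457 ± 0.0151 in DW males and 0.153 ± 0.0669 in p21 males. In females the ratio to Scd1 was 0.235 ± 0.145 after SW, 0.0619 ± 0.0114 after DW and 0.237 ± 0.172 at p21, so by this ratio SW and p21 females overlapped and DW females were the low group. Per 1000 reads of Elovl6, Elovl3 had 14.3 ± 10.0 after SW, 4.23 ± 2.54 after DW and 5.36 ± 2.41 at p21 in males, and 8.59 ± 3.75, 4.08 ± 1.93 and 10.2 ± 9.49 in females. Elovl3 in DW pups was thus low in the same animals whose Scd1 counts, 28860 to 45070, overlapped with those of SW pups, 24570 to 52230.

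**Figure D3:**
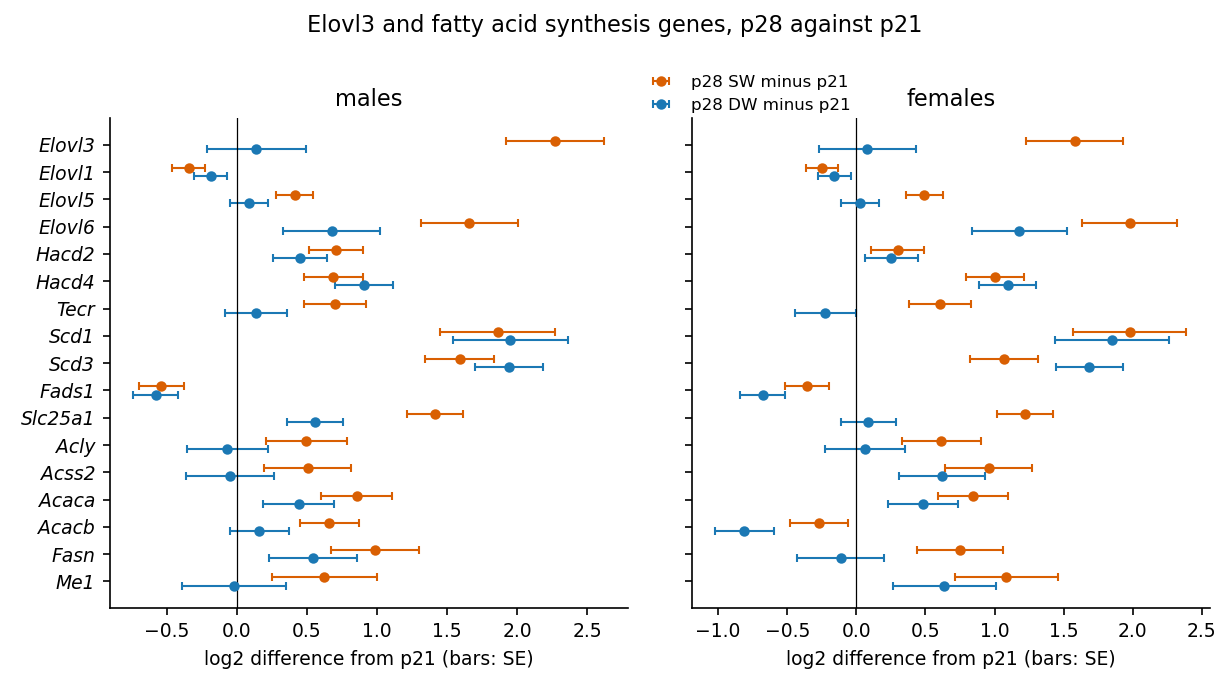
Difference from p21 on the log2(value + 1) scale (horizontal axis, bars: SE of the limma fit) for Elovl3 and 16 fatty acid synthesis genes, in SW (orange) and DW (blue) pups of each sex. Both differences use the same p21 animals; for Elovl3 they were 2.27 and 0.14 in males and 1.58 and 0.08 in females.

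Among 12 genes of de novo lipogenesis, which supplies the chains that elongases extend, 1 was called between DW and SW. Slc25a1, the carrier that exports citrate from mitochondria for fatty acid synthesis, differed by -1.13 on the log2 scale in DW females (SE 0.20, adjusted p = 0.00586, limma). Its mean count there was 735.5 ± 225.8 (SD, n = 4), against 1569 ± 264 in SW females. That call held in 30 of 31 alternative fits and was lost when the fit held the compared groups alone. In males the Slc25a1 difference was -0.85 (adjusted p = 0.0903, limma), with means of 871.2 ± 125.3 after DW and 1577 ± 227 after SW. The 8 SW animals had Slc25a1 counts of 1272 to 1861 and the DW animals of 462.6 to 1044, so the weaning groups do not overlap for this gene either.

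The median DW minus SW change of the 12 lipogenic genes was -0.49 in males and -0.42 in females, while that of all genes was 0.0037 and -0.025. Against p21, 4 of the 12 rose in SW males (Slc25a1, Acaca, Acacb and Fasn), beside 6.90% of all genes, and 3 in SW females (Slc25a1, Acaca and Acss2), beside 7.39%. In DW pups none of the 12 rose over p21, beside 8.86% of all genes in males and 5.95% in females. Mid1ip1 fell in DW males, beside 6.10% of all genes, and Acacb and Mlxipl fell in DW females, beside 6.16%. Without 1 library, the Mid1ip1 call held in 18 of 24 fits, that of Acacb in 23 and that of Mlxipl in 24. Each of these calls held in 5 of 7 other alternative fits. Apart from Slc25a1, the calls for SW pups were each lost in several alternative fits, some of them in most. Without 1 library, the Acaca call held in 19 of 24 fits in each sex and that of Fasn in 12. The Acacb call held in 9 of 24 and that of Acss2 in 6, and in 1 of 7 other alternative fits for Acss2.

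Elovl3 is often used as a marker of thermogenic fat, and 21 other thermogenic genes were counted beside it. None of the 21 was called between DW and SW in either sex in limma, and alternative fits called at most 1. Their median change, DW minus SW, was -0.32 in males and -0.01 in females. Ucp1 had mean counts of 222.1 ± 151.4 (SD, n = 4) in SW males and 103.3 ± 29.5 in DW males, a difference of -0.91 (SE 0.57, adjusted p = 0.856, limma). In females Ucp1 had 136.7 ± 49.4 after SW and 145.5 ± 38.9 after DW. Its highest means were at p21, 445.7 ± 199.2 in males and 244.1 ± 172.9 in females, where Elovl3 was low.

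Over age, 1 of the 21 thermogenic genes rose from p21 in SW males (Adrb3, the adipocyte beta-adrenergic receptor) and 1 fell (Tmem26), which is near or under the background of 6.90% higher and 4.97% lower. In SW females 1 rose (Cited1) and 7 fell, among them Ppargc1a, a coactivator of mitochondrial biogenesis, and Ppara, a nuclear receptor of fatty acid oxidation, beside a background of 7.39% higher and 4.23% lower. The calls of Ppara (adjusted p = 0.0487, limma) and of Tmem26 in males (adjusted p = 0.0474, limma) each held in 7 of 24 fits without 1 library. In DW males 6 fell, Ucp1 among them at -2.02 (adjusted p = 0.0205, limma), beside 6.10% lower over all genes. In DW females 5 fell and 1 rose, beside 6.16% lower and 5.95% higher over all genes. The Ucp1 call was lost without p21 male 53, DW male 79 or DW male 86, and in 2 of 7 other alternative fits. Cidea, a lipid droplet protein of brown fat, had Elovl3 ratios per 1000 reads of 20.6 ± 10.9 (SD, n = 4) in SW males and 17.7 ± 10.1 in SW females, against 4.39 ± 1.45 and 7.40 ± 3.44 after DW and 2.57 ± 1.34 and 3.44 ± 1.17 at p21.

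Of 20 lipid and adipocyte transcription regulators none was called between DW and SW in limma, while alternative fits called up to 4 lower and 1 higher in females. In SW females 3 fell from p21 (Pparg, Ppara, with the limit given above, and Ppargc1a), beside 4.23% of all genes, and in SW males none was called. In DW females 4 regulators were lower than at p21, Ppargc1a among them, beside 6.16% of all genes. In DW males 3 regulators were higher and 1 lower, beside 8.86% and 6.10%. Of 19 clock genes tested, none was called between DW and SW, also in the alternative fits. In SW females 5 clock genes fell from p21 and 1 rose, beside 4.23% and 7.39% of all genes. In SW males 2 clock genes rose, beside 6.90%, and the call of one of them, Rora, held in 6 of 24 fits without 1 library. After DW, 3 clock genes were lower than at p21 in females and 1 was higher in males, beside 6.16% and 8.86%. Hours of dissection are not given in the labels used here, and their part in the Elovl3 values was not tested. Among 24 genes of long chain acyl-CoA use, none was called between DW and SW, and alternative fits called up to 3 lower in females. Against p21, 3 of those 24 rose in SW males, and 1 rose and 1 fell in SW females, counts near or little above the background of 6.90% in males and 7.39% and 4.23% in females. After DW, 4 of the 24 rose and 2 fell in males, beside 8.86% and 6.10%, and none was called in females.

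Markers of other tissues that may come with an inguinal pad were read beside Elovl3. Sebaceous gland markers, of which 5 of 7 had values, summed to 14.7 to 23.5 in SW animals and to 15.4 to 45.5 in the others, a sum to which Mc5r gave the most (at most 38.8, and Awat2 at most 0.491). The members went both ways against p21: Mogat1 was called higher in SW males (1.23) and SW females (0.76), Far2 lower in SW males (-0.58) and Mc5r lower in SW females (-1.39). Without 1 library, the Mogat1 call in SW females held in 9 of 24 fits and the Far2 call in 19 of 24. Mogat1 was also called higher than p21 in DW males (0.86) and DW females (0.88), and DW minus SW was called for none of these 3 genes. The r of the 5 genes with Elovl3 ran from -0.42 to 0.54, and the part of these genes in the Elovl3 values was not tested. Brown lineage markers summed to 197.3 to 595.2 in SW animals and 254.7 to 685.1 in the rest, and Zic1 was listed at 0 in 9 animals. In that sum Pdk4 reached 625.3 and Epsti1 141.1, while Lhx8, Eva1a and Zic1 reached at most 3.11. The r of the 4 tested brown lineage genes with Elovl3 ran from -0.34 to 0.66. Against p21, 1 of them was called higher and 1 lower in SW males (background 6.90% and 4.97%). Their part in the Elovl3 values was not tested. Skeletal muscle markers, all 6 with values, summed to 366.3 to 3763 in SW males, 271.6 to 5492 in DW males and 1.58 to 456.2 in p21 males. In females the muscle sums were 242.9 to 2331 after SW, 2.06 to 1395 after DW and 2.37 to 1049 at p21. Mammary epithelium markers summed to 285.8 to 393.0 in SW females, 108.4 to 239.2 in DW females and 45.8 to 173.0 in p21 females, and to at most 47.4 in males. Skin keratinocyte markers, of which 3 of 7 had values, summed to 24.3 to 34.3 in SW males and 22.0 to 36.5 in SW females. The keratinocyte sums were 25.2 to 31.7 and 11.0 to 28.1 in DW males and females, and 9.47 to 27.0 and 17.7 to 21.4 at p21, and Sbsn gave the most to them (at most 34.4). In females the median muscle, mammary and keratinocyte sums were highest after SW, as Elovl3 was. In males the median sums were alike after SW and DW for muscle (2999 and 2702) and keratinocytes (29.15 and 29.14), unlike Elovl3. Over the 24 animals the r with Elovl3 was 0.40 for muscle, 0.46 for keratinocyte and 0.17 for mammary sums. The mammary r mixes the sexes, since the sums of males were low in every group. In females the mammary sums after SW lay above all those after DW and at p21, as the Elovl3 counts did. Of 8 mammary markers, 6 were called higher than p21 in SW females (background 7.39%) and 1 in DW females (5.95%). None was called between DW and SW in females (background 0.462% higher, 0.812% lower). The part of these sums in the Elovl3 values was not tested.

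The 8 adipocyte markers summed to 20330 to 27320 in SW males and 19820 to 24040 in DW males. In females they summed to 19600 to 25670 after SW and 18040 to 23900 after DW. At p21 they summed to 14720 to 17890 in males and 17940 to 23650 in females. The adipocyte sum overlapped between DW and SW in each sex, where Elovl3 counts did not. In males both the SW and the DW sums lay above those at p21. Over the 24 animals the r of the adipocyte sum with Elovl3 was 0.59, and its part in the Elovl3 values was not tested.

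The genes most like Elovl3 over the 24 animals were ranked by Pearson's r on the log2(value + 1) scale among 13076 genes with a mean of at least 1. Because the groups form separate clusters, r mostly reads the SW animals against the rest and is given as a description with no p. The 10 highest were Echdc1 and Ube2e2 (r = 0.82), Slc25a1 and Tinag (0.80), Apoc1 (0.78), Map6 (0.77), 1110032A03Rik and Tmem106c (0.74), and Mpc1 and Pepd (0.74). Of all genes ranked, 26 had r of at least 0.7 and 30 had r of -0.7 or less. As background, Echdc1 removes ethylmalonyl-CoA, Ube2e2 is a ubiquitin-conjugating enzyme, Tinag a basement membrane protein and Apoc1 an apolipoprotein. Map6 stabilises microtubules, Mpc1 is a subunit of the mitochondrial pyruvate carrier, and Pepd splits dipeptides that end in proline.

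Echdc1, the first of them, had a mean count of 433.5 ± 60.2 (SD, n = 4) in SW males, 308.5 ± 42.4 in DW males and 205.9 ± 20.4 in p21 males. In females Echdc1 had 398.8 ± 59.02 after SW, 266.6 ± 8.27 after DW and 216.5 ± 26.4 at p21. Unlike Elovl3, Echdc1 in DW males, at 274.8 to 365.3, lay above its p21 range of 184.8 to 231.5, and it overlapped with SW males, at 350.2 to 490.2. Apoc1 had 146.6 ± 27.1 in SW males and 139.0 ± 13.4 in SW females, and its DW means of 83.4 ± 20.8 and 82.7 ± 31.1 lay near its p21 means of 66.3 ± 20.7 and 70.3 ± 16.7. By rank Apoc1 was the most alike of the genes compared, with a Spearman's rho of 0.82.

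**Figure D4:**
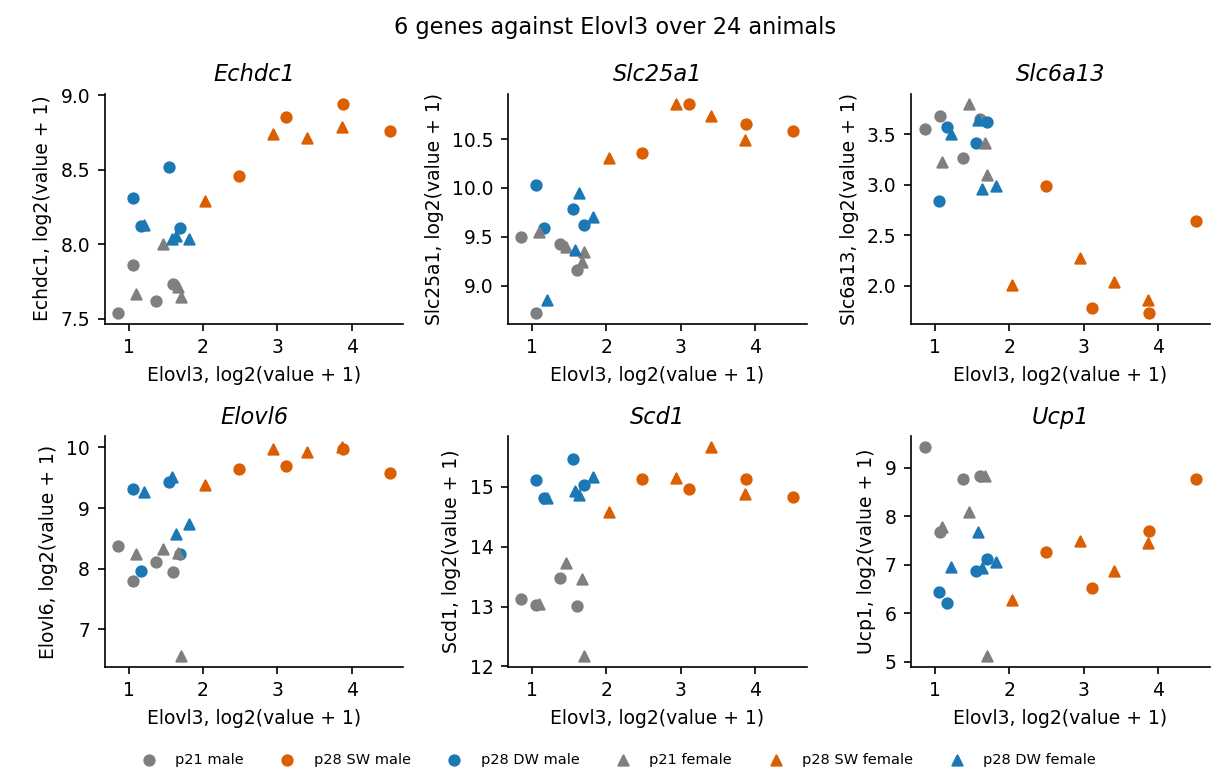
Each panel plots 1 gene (vertical axis) against Elovl3 (horizontal axis), both as log2(value + 1), over the 24 animals; grey is p21, orange SW, blue DW, circles males and triangles females. Echdc1 and Slc25a1 are high and Slc6a13 is low where Elovl3 is high, while Scd1 is high in SW and DW alike.

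At the other end stood Cenpq (r = -0.80), Slc6a13 (-0.78), Nup107 (-0.77) and Ddx18 (-0.77). Slc6a13, a transporter of GABA and taurine, had mean counts of 4.22 ± 2.25 (SD, n = 4) in SW males, 9.51 ± 2.36 in DW males and 10.7 ± 1.45 in p21 males. In females Slc6a13 had 3.14 ± 0.50 after SW, 8.89 ± 2.39 after DW and 9.63 ± 2.37 at p21. The group means of Slc6a13 were lowest in the SW groups, in which Elovl3 was highest.

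The ranking rests in part on the most extreme animals. With SW males 78 and 84 left out, 4 of the 10 genes stayed among the 10 highest. Ranked by Spearman's rho in all 24 animals, 4 did as well. Without those males the r of Echdc1 was 0.79, that of Slc25a1 0.80 and that of Apoc1 0.77. In the 12 males alone the r of Echdc1 with Elovl3 was 0.80 and in the 12 females 0.87. With the group means removed, the r of the 10 genes with Elovl3 fell to between 0.06 and 0.50.

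The within-group relation was tested in limma with the level of Elovl3 as a covariate beside the 6 groups, which does not use the differences that chose the gene. None of 16004 genes passed the threshold (0%). At an unadjusted p under 0.05 there were 778 of the 16004 genes, near the 1 in 20 that chance gives. The smallest adjusted p was 0.871 (limma). With the other scaling, filter and pseudocount, and without any 1 library, this fit also called 0 genes. Of the genes nearest to passing, those that went with Elovl3 within groups were Klf10, Adam12, Lurap1, Cish, Gm10643, 6430550D23Rik, Eln and L3hypdh, with within-group r between 0.60 and 0.73. Those that went against it were Tnfaip3, Cxcr4, Ch25h and Cdhr1, with r between -0.80 and -0.68. The lymph node markers, all 6 with values, had within-group r from -0.67 to -0.28 with Elovl3, and their part in its spread was not tested. The wide spread of Elovl3 among SW animals was therefore matched by no single gene past the threshold.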

How the data were processed

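Per the labels, RNA was extracted with a lipid tissue kit, and KAPA mRNA HyperPrep libraries were run on a NovaSeqXPlus. The submitters' processing notes name fastp, HISAT2, featureCounts, DESeq2 1.38.3 and mm10. What the authors deposited for every gene and library is a signal, its reads divided by a library factor. All values (100%, within 0.01 read) were whole multiples of what 1 read is worth, so reads were recovered. The authors also deposited log2 fold changes and p-values of 15 comparisons, not used here. After 90 repeated rows were left out, 16118 genes remained. The lowest chi-square per degree of freedom over 36 replicate pairs was 77.1, so none was merged. Deposited scaling lay within 0.965 to 1.03 of TMM.

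limma 3.58.1 (R 4.3.3; lmFit, eBayes with trend) was fitted to log2(value + 1) of 16005 genes kept by filterByExpr (minimum count 10), with 6 group coefficients and 18 residual degrees of freedom. Genes were called at a Benjamini-Hochberg adjusted p under 0.05. Scripts were tested on simulated data. edgeR 4.0.16, DESeq2 1.42.0, other pseudocounts, filters, covariates and left-out libraries were alternatives. Named genes were Elovl3, members of the lists, the 10 with the highest and 5 with the lowest r, and the 8 and 4 nearest to passing within groups; 1 of the 5 and 1 list member are not reported here. Elovl3 and all lists were chosen with earlier results of these data known. Where a title and a description disagreed on age, the description was followed.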

Additional observations from a re-analysis of the deposited data

Results flagged for a closer look

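Elovl3 itself had no animal that stood apart from the rest of its group by Dixon's criterion for 4 animals. Over Elovl3 and the 15 genes most like or unlike it, 96 groups were examined and 4 were past the criterion, where chance gives about 4.8 (1 in 20). On the log2(value + 1) scale, Echdc1 was 8.29 in SW female 75, under the 8.71 to 8.78 of the other SW females, and Mpc1 was 7.95 in the same animal, against 8.16 to 8.21. SW female 75 also had the lowest Elovl3 count of the SW animals. Map6 was 4.08 in DW female 83, against 4.59 to 4.66, and Ddx18 was 4.52 in SW male 124, against 4.26 to 4.28.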

How the results depend on the processing

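The direction of every sex and interaction value of Elovl3 and its failure to pass the threshold held in all 31 alternative fits, with adjusted p from 0.359 to 1.00 (limma, edgeR or DESeq2). SW minus DW and SW minus p21 of Elovl3 kept their direction throughout. No paired analysis was possible because no animal number is shared between groups. DW minus p21 of Elovl3 reversed with the range of animal numbers as a covariate, to -1.25 in males and -1.31 in females, where SW minus p21 was 1.26 and 0.134. Without 1 library, DW minus p21 of Elovl3 in females ran from -0.0503 to 0.195, below 0 without p21 animal 36 or DW animal 77.

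Genes called, DW minus SW in males (41), numbered 111 in DESeq2 and 134 with the compared groups only. Without p21 male 53, SW male 84 and SW female 74, the 3 libraries left out together, they numbered 25. They numbered 10 to 71 without 1 library, the count moving over 1.5 times without p21 male 53, SW male 84, DW males 79, 80 and 87 or DW female 76. In females (204) they numbered 71 in edgeR (63 higher and 8 lower, against 74 and 130), 63 with a pseudocount of 0.1, 1 with the compared groups only, and 122 with the range covariate. Without 1 library they numbered 45 to 1996, moving over 1.5 times without any of the 8 SW and DW females. SW minus p21 in males (1901) gave 922 with the compared groups only, 214 with the range covariate, 925 without the 3 libraries and 1149 to 2180 without 1 library (1149 without SW male 85). In females (1860) the range covariate gave 158, and 1392 to 2240 were called without 1 library. DW minus p21, an alternative set chosen after seeing the data, gave 147 of 2395 in males and 182 of 1938 in females with the range covariate, 1378 in males without the 3 libraries and 486 in females with the compared groups only. Without 1 library it gave 1229 to 2740 in males (p21 male 53 and DW males 86 and 87 moving it most) and 1076 to 3123 in females (DW females 76 and 83). The cause was not tested, except that the range covariate leaves 1 p28 animal to set the age difference.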
